A study of Mus musculus with 14 samples.

Results

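Cycling granule cell progenitors of the E18.5 mouse hindbrain (E, embryonic day) were taken as cells that held Pax6 and proliferation transcripts but no transcripts of the caudal Hox genes. Single cells were kept where at least 1000 genes were detected and under 10% of the unique molecular identifiers (UMIs, each standing for 1 captured RNA molecule) came from mitochondrial genes. A kept cell was a member with at least 2 UMIs of Pax6, 0 UMIs over Hoxb2, Hoxb3, Hoxb4 and Hoxb5, at least 3 UMIs over Mki67 and Top2a, and at most 4 UMIs of Eomes. The rule chose 9957 of the 55054 kept E18.5 cells, out of 64049 barcodes at that stage and 122658 kept cells in the series. The control libraries gave 1677, 1722 and 1304 members, and the mutant libraries 2385, 1627 and 1242.

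Granule cells are the small excitatory neurons of the cerebellum. Their progenitors leave the rhombic lip, spread over the cerebellar surface as the external granule layer, and divide there under Sonic hedgehog from Purkinje cells before they exit the cell cycle and migrate inward. ATOH1, a basic helix-loop-helix transcription factor that binds E-box motifs, is required for this lineage and holds progenitors in a dividing state.

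The study examined mice with reduced ATOH1 function by single-cell RNA sequencing, and 6 E18.5 libraries of sorted hindbrain cells are used here, with 3 of each genotype. Control embryos were Atoh1Cre/+ and Rosa lsl-tdTomato/+, and mutant embryos, called Atoh1S193A/- here, were Atoh1Cre/S193A and Rosa lsl-tdTomato/+, all on C57BL/6J. In both genotypes 1 Atoh1 allele was replaced by Cre, so the controls carried a single intact copy, and the mutants carried in its place a copy in which serine 193 is changed to alanine. Each library was 1 embryo, sorted for live tdTomato-positive cells, that is for cells with a history of Cre expression from the Atoh1 locus. By the study's account each mutant had a control littermate, and equal library numbers were taken as pairs. The 6 libraries gave medians of 15446 to 23584 UMIs and 4318 to 5363 genes per member, with 3.58% to 4.06% mitochondrial UMIs, and 20176475 to 50601945 UMIs over the members of a library. The change at serine 193 lies outside what 3′ tags read, so the level of Atoh1 checks nothing about the label. The reporter's WPRE sequence was read at 380, 329 and 287 CPM, counts scaled to 1000000 per library, in the control members and at 384, 361 and 277 CPM in the mutant members. Any 2 libraries shared at most 67 cell barcodes.

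Genes that mark the lineage and were not used by the rule were read in these cells, and a UMI alone does not show that a cell expresses a gene. After each cell was thinned to 5000 UMIs, Zic1, a zinc finger factor of the granule lineage, had a UMI in 94.0% to 96.2% of members over the 6 libraries. The homeobox factor Barhl1 had one in 47.5% to 60.7% and Atoh1 in 20.7% to 30.8%. Among other kept cells with under 2 Pax6 UMIs and little Mki67 and Top2a, Zic1 had a UMI in 62.8% to 73.6%, Barhl1 in 25.4% to 40.9% and Atoh1 in 4.83% to 13.5%. In non-dividing granule lineage cells Zic1 had one in 97.0% to 98.6%, Barhl1 in 57.5% to 62.9% and Atoh1 in 9.11% to 14.6%. Of the 3 genes, only Atoh1 had a range in members that lay above those of both other classes. Gad2, which marks inhibitory neurons, had one in 0.640% to 2.23% of members. The rule's own genes are a description only: the median member held 9 to 12 UMIs of Pax6 and 29 to 38 UMIs of Mki67 plus Top2a, depending on the library, and 24.8% to 35.7% of members held some Eomes (unthinned).

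Cells lay on both sides of each limit of the rule, and the shares given here are of unthinned cells. Of the 229 members with exactly 2 Pax6 UMIs, 70.7% had Barhl1 and 42.8% had Atoh1, against 62.3% and 45.2% of the 146 cells just outside with 1. Ccnd2 had a UMI in 89.5% and 78.8% of these cells and Neurod1 in 77.7% and 66.4%, at median depths of 14695 and 12008 UMIs. Exactly 3 UMIs of Mki67 plus Top2a were held by 582 members, of which 84.4% had Barhl1, and 1146 granule lineage cells with 2 had it in 83.8%. At the Eomes limit, 239 members held 4 UMIs and 157 cells outside held 5. With 1 Hox UMI, 714 further cells lay outside, of which 90.5% had Barhl1 against 85.7% of members.

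The sequences at the start sites of the genes that carry the genotype comparison are shown here because ATOH1 binds E-boxes, short sequences of the form CANNTG. RefSeq windows of GRCm38.p6 (250 bases before to 50 after a start) were searched on both strands for CAGCTG, printed in capitals. The printed Hrk and Rab15 windows lie inside the gene spans given below, whose own outermost starts were not searched. The first line is Hrk (chr5:118169514-118169813, plus strand), the second Rab15 (chr12:76822475-76822774, minus strand) and the last Barhl1 (chr2:28916619-28916918, minus strand).
Hrk: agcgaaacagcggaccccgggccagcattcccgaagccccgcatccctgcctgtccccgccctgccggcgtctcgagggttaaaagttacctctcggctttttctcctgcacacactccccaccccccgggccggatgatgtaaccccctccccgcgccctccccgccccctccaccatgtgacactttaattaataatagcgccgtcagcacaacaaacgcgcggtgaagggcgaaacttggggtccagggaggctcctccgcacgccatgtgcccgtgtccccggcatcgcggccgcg
Rab15: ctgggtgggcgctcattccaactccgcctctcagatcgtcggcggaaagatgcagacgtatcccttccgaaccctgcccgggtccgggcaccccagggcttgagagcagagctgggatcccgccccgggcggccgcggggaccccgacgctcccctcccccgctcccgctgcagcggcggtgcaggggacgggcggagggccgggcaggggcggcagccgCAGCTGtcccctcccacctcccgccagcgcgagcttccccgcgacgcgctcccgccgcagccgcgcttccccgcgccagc
Barhl1: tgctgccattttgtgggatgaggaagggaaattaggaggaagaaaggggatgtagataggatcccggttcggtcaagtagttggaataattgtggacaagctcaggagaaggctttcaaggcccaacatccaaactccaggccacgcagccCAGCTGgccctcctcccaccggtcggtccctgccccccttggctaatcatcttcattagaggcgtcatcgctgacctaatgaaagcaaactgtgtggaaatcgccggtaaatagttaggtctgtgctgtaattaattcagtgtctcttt

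The Hrk window held 2 matches to CANNTG and the printed Rab15 and Barhl1 windows 1 each, and 72.3% of all windows held at least 1. The Rab15 and Barhl1 windows each held 1 CAGCTG and the Hrk window held none. CAGCTG occurred in 16.3% of the 32851 mouse windows, so single matches are common and describe only these letters in these windows. A further Barhl1 window at chr2:28912446-28912745 also held 1 CAGCTG, and the other 3 Rab15 windows held none. CATCTG, in either orientation, was in none of the windows printed here and in 17.2% of all windows, and the Rab15 window at chr12:76819047-76819346 held 1.

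Levels in cycling progenitors were set beside those in their non-dividing relatives. The comparison group was 17287 cells of the same 6 libraries with the same Pax6, Hox and Eomes limits but no Mki67 or Top2a. Because Mki67 and Top2a chose both classes, these levels are described without a test. CPM here refers to the UMIs summed over the cells of a class. Of 12 Hedgehog transducers and targets, 10 were higher in progenitors in all 6 libraries and 1 was lower in all 6, with a median ratio of 2.30. Of 14 G1 cyclins and kinases 13 were higher and 1 lower (median ratio 2.71), and of 34 neuronal genes 6 were higher and 25 lower (0.531). The 25 granule lineage factors divided into 9 higher and 13 lower (0.921). All 42 S phase genes (median ratio 5.75) and all 50 G2 and mitosis genes (42.2) were higher, which the choice by Mki67 and Top2a favors. Over all 9970 genes, 43.2% were higher in all 6 libraries and 43.8% lower. Gli1, a transcription factor switched on by Hedgehog signaling, averaged 33.1 CPM in progenitors and 5.58 CPM in non-dividing cells, a ratio of 5.94. Ccnd1, encoding cyclin D1, averaged 392 and 71.7 CPM, a ratio of 5.46. Ccnd2, encoding cyclin D2, averaged 1417 and 588 CPM. Ptch1, the Hedgehog receptor and itself a target, averaged 157 and 71.8 CPM. The co-receptor Gas1 had a ratio of 2.78, the neural progenitor factor Sox2 2.54, and the Notch effector Hes1 2.32.

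Atoh1 averaged 64.4 CPM in progenitors and 28.7 CPM in non-dividing cells, a ratio of 2.25. Among other factors of the lineage the ratio was 0.844 for Barhl1, 0.580 for Neurod1, 0.538 for Zic1 and 1.00 for Meis1. Neurod1 drives granule neuron differentiation. The lowest ratios among the genes plotted were those of Dcx (0.293) and Tubb3 (0.193), which encode microtubule proteins of young neurons. Each gene plotted had the same direction in all 6 libraries, apart from Meis1, which was higher in progenitors in 2 of 6.

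**Figure D1:**
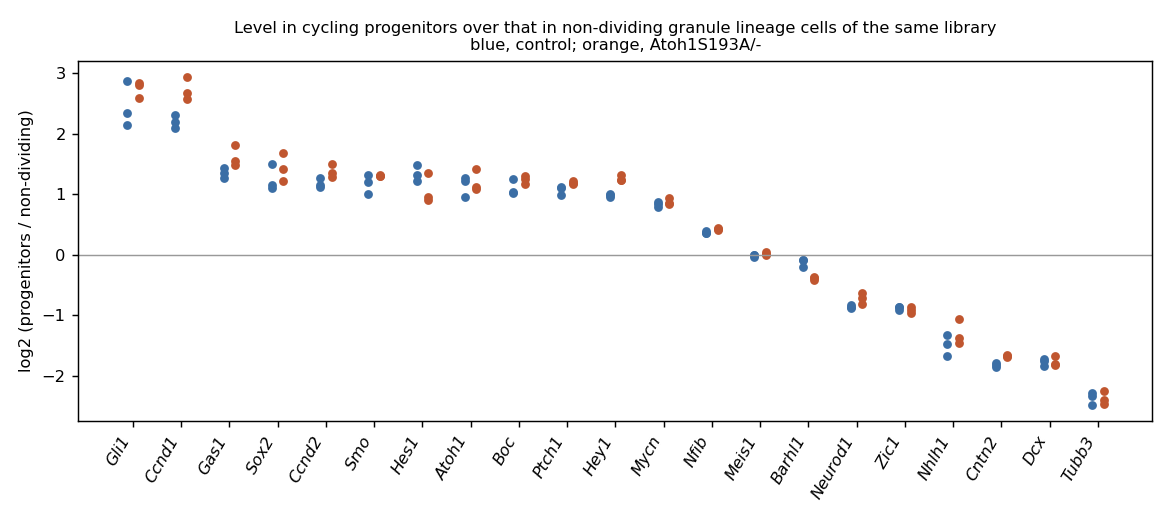
Level in cycling progenitors over that in non-dividing granule lineage cells of the same library, as a log2 ratio of CPM, for 21 genes; each point is 1 library (blue, control; orange, Atoh1S193A/-). The 21 genes were picked for display and hold none of the S phase or G2 and mitosis lists. Among them Gli1 and Ccnd1 sit highest (mean ratios 5.94 and 5.46) and Tubb3 lowest (0.193).

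The first genotype question was whether fewer granule cell progenitors were dividing when ATOH1 function was reduced. No difference in the share of cycling progenitors was detectable with 3 embryos of each genotype. They made up 20.8%, 18.2% and 14.3% of kept cells in the control libraries and 21.0%, 19.3% and 14.4% in their mutant littermates. The means were 17.8% ± 3.29 and 18.2% ± 3.44 (SD, n = 3 each), a mutant minus control difference of 0.47 percentage points. The difference did not pass limma on the logit scale (adjusted p = 0.999 over 7 classes) or the exact two-sided permutation test (p = 0.7, where 3 against 3 cannot go below 0.1). The spread between litters exceeded that between littermates, whose differences were 0.200, 1.11 and 0.112 points. Sorting sets which cells enter these shares, and fewer cells of a type cannot be told apart from more of the others.

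Among granule lineage cells alone, 36.7%, 30.4% and 27.9% were cycling in controls and 37.6%, 28.4% and 23.8% in mutants. The difference of means was -1.72 points, with 31.7% ± 4.52 against 29.9% ± 7.03 (SD, n = 3 each; limma adjusted p = 0.675; exact permutation p = 0.8). The mutant was higher in pair 1 and lower in pairs 2 and 3. The limits count raw UMIs. Median depth of non-dividing cells was 15541, 11520 and 13987.5 UMIs in controls and 13051, 11989.5 and 10222 in mutants. With kept cells thinned to 5000 UMIs, members made up 14.1%, 12.5% and 11.0% of them in controls and 15.3%, 12.4% and 11.5% in mutants. Non-dividing granule lineage cells then made up 33.7%, 38.0% and 36.5% against 31.4%, 42.1% and 40.8%. Leaving out 1 library turned signs: the first difference became -0.909 without mutant 1, -0.0684 without mutant 2 and -1.27 without control 3, and the second 0.789 without control 1 and 1.33 without mutant 3.

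Position in the cell cycle was compared next. With members thinned to 5000 UMIs, the share of a cell's UMIs in each list was divided by that list's mean over the 6 libraries. The scaled shares set cells against these means and do not give the fraction of cells in S phase. Cells whose scaled S phase share exceeded their scaled G2 and mitosis share were called S-leaning. They made up 53.2% ± 1.89 of control and 52.0% ± 1.67 of mutant members (SD, n = 3 each). This difference of -1.16 points did not pass the exact two-sided permutation test (p = 0.5) or limma with littermates as a block (p = 0.283). The share was lower in the mutant of each of the 3 pairs, at 54.0% and 51.2%, 54.6% and 54.0%, and 51.1% and 50.9% in control and mutant. Without the cells of highest Scrublet score this held in pair 1 alone, with 54.4% and 54.5% in pair 2 and 50.9% and 51.4% in pair 3. S phase genes took 0.553% of UMIs in controls and 0.563% in mutants, and G2 and mitosis genes, without Mki67 and Top2a, took 1.27% and 1.34%. The G2 and mitosis share was higher in the mutant of each pair, at 1.31% and 1.35%, 1.24% and 1.30%, and 1.26% and 1.36%, with p = 0.2 by the exact permutation test over libraries. With 3 libraries against 3 that test cannot go below 0.1. Without the cells of highest Scrublet score the G2 and mitosis share was 1.318%, 1.275% and 1.279% in controls. In mutants it was then 1.376%, 1.320% and 1.386%, without overlap (p = 0.1 by the exact permutation test). In the other alternatives the exact permutation test gave p = 0.2 or p = 0.3 for this share. No other kind of test was run on it.

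**Figure D2:**
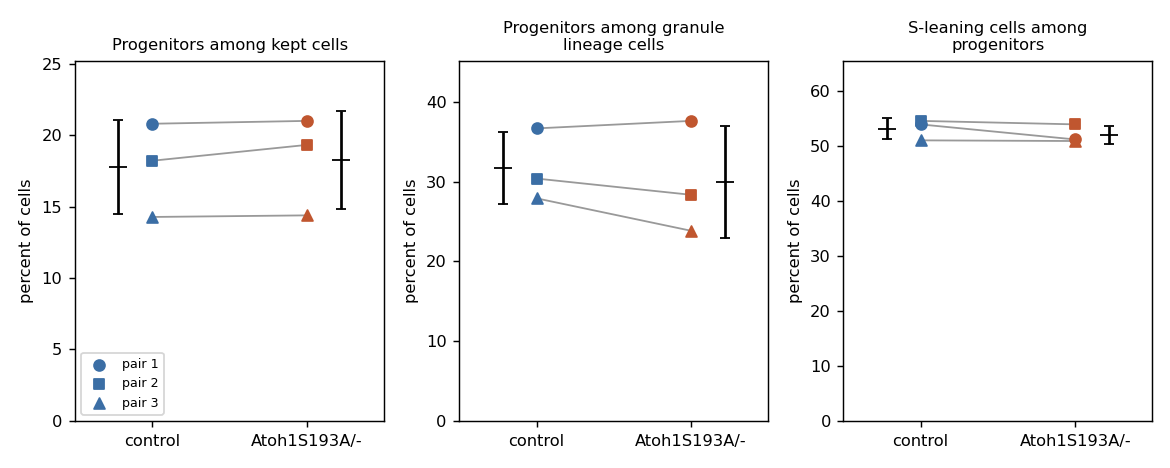
Shares of cycling progenitors by library, in percent of kept cells and of granule lineage cells, and of S-leaning cells among members; grey lines join littermates, symbols mark pairs 1 to 3 and horizontal bars are group means with SD error bars. Littermates lie closer to each other than the 3 litters do in the share of kept cells, which runs from 14.3% to 21.0%.

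The second genotype question was which genes differ within the progenitors. Few did, and the called changes included the cell death gene Hrk, the trafficking gene Rab15, the lineage factor Barhl1 and the glutamate transporter gene Slc17a6. UMIs were summed over the members of each library and tested with edgeR's quasi-likelihood test (TMM scaling, Benjamini-Hochberg adjustment). A gene was called at an adjusted p under 0.05 with an absolute log2 change over 0.25, and only genes detected in 10% or more of the cells of either genotype entered. Of 9970 genes 44 were called, which is 0.441%. Of these, 18 were higher in the mutant (0.181%) and 26 lower (0.261%), while 612 genes had an unadjusted p under 0.05. The median change over all genes was -0.01.

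With littermates as a block, 225 genes were called (2.26%), 101 higher (1.01%) and 124 lower (1.24%), and all 44 were among them. The 3 control and 3 mutant libraries did not overlap for any of the 44, which was true of 10.8% of all genes tested. The fit without control 2 made 11 calls and that without mutant 2 made 15, all among the 44. The other single omissions made 28 calls (control 1), 27 (mutant 1), 32 (control 3) and 22 (mutant 3), of which 24, 24, 30 and 22 were among the 44. In every alternative run, 11 genes kept their call: Hrk, Rab15, Mab21l2, Loxl1, C230057M02Rik, Qpct, Kcnk9, Kctd8, Gm2694, Bcas1 and Rmst.

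Hrk (ENSMUSG00000046607, chr5:118164648-118189478 of GRCm38) encodes harakiri, a BH3-only activator of apoptosis, and had the largest rise. Its level was 3.44, 2.97 and 3.79 CPM in the control libraries, from 145, 93 and 105 UMIs, and 19.0, 16.1 and 16.0 CPM in the mutant libraries, from 978, 509 and 324 UMIs. Every mutant library stood over 4 times the highest control. The log2 change was 2.33 ± 0.12 (SE; edgeR adjusted p = 0.000448).

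Rab15 (ENSMUSG00000021062, chr12:76797960-76822908), a small GTPase of endosomal recycling, had the largest fall. It was read at 20.9, 30.2 and 26.0 CPM in controls and 5.25, 6.12 and 7.44 CPM in mutants. The lowest control was well above the highest mutant, and the log2 change was -2.06 ± 0.17 (SE; edgeR adjusted p = 0.00383).

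Barhl1 (ENSMUSG00000026805, chr2:28907679-28916668), a marker of the lineage, fell by a smaller but very even amount. Controls gave 225, 225 and 223 CPM and mutants 166, 156 and 165 CPM. The log2 change was -0.46 ± 0.05 (SE; edgeR adjusted p = 0.00649), and the adjusted p became 0.0515 without control 2.

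Atoh1 itself (ENSMUSG00000073043, chr6:64729125-64731245) was read at 51.9, 58.3 and 56.9 CPM in controls and 78.9, 69.8 and 63.0 CPM in mutants. It was higher in all 3 mutant littermates without overlap between the groups, yet its log2 difference of 0.34 ± 0.09 (SE) did not pass the test (edgeR adjusted p = 0.282). With littermates as a block it did (adjusted p = 0.0354).

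The remaining large falls included Kcnk9, Slc17a6 and Grin2a. Kcnk9, a potassium leak channel, was read at 54.7, 59.4 and 53.1 CPM in controls and 32.9, 31.0 and 34.7 CPM in mutants, a log2 change of -0.76 ± 0.07 (SE; edgeR adjusted p = 0.00392). Slc17a6, the vesicular glutamate transporter VGLUT2, was at 33.0, 40.5 and 36.8 CPM against 20.0, 21.1 and 22.9 CPM, a change of -0.79 ± 0.09 (adjusted p = 0.00841). Grin2a, an NMDA receptor subunit, changed by -0.77 ± 0.08. In each of these 3 the mutant libraries lay below the controls.

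Other falls were in genes with varied known roles. Mab21l2, an eye and brain development gene, was at 17.8, 17.2 and 20.6 CPM in controls and 8.80, 6.82 and 8.72 CPM in mutants (log2 change -1.19 ± 0.12). Loxl1, a crosslinker of elastic fibers, was at 31.4, 28.3 and 35.9 CPM against 15.4, 13.7 and 14.4 CPM (-1.13 ± 0.10). The genotypes did not overlap for either gene. Gm17322, a low-level predicted gene, changed by -1.59 ± 0.18, Pdlim4, an actin-associated LIM protein, by -0.93 ± 0.11, and Qpct, a glutaminyl cyclase, by -0.81 ± 0.08. The long noncoding RNA gene C230057M02Rik changed by -0.87 ± 0.08.

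Below these by size, further called falls included Cbln1, Gm2694, Kctd8, Camk4 and Synpr, which were picked for description after their values were seen. Cbln1, a secreted synapse organizer of granule cells, was at 79.6, 78.0 and 74.9 CPM in controls and 56.4, 50.6 and 54.6 CPM in mutants (log2 change -0.52 ± 0.06). Gm2694, which overlaps Cbln1 on the other strand, was at 213, 219 and 220 CPM against 136, 133 and 141 CPM (-0.67 ± 0.04). Both therefore fell, and reads were not separated further at this locus. Kctd8, an auxiliary subunit of GABAB receptors, changed by -0.70 ± 0.05, the calcium-dependent kinase Camk4 by -0.69 ± 0.08, and the synaptic vesicle gene Synpr by -0.54 ± 0.06. Of the 44 called genes, 12 overlap another annotated gene on the same strand and 22 one on the other strand in GENCODE M21.

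The rises after Hrk were smaller. Pdlim3, an actin-associated LIM protein, was at 13.1, 13.5 and 17.5 CPM in controls and 30.4, 23.9 and 29.1 CPM in mutants (log2 change 0.93 ± 0.13; edgeR adjusted p = 0.0320). Bcas1 was at 17.6 ± 0.978 CPM in controls against 29.5 ± 0.952 CPM in mutants (SD, n = 3 each), a log2 change of 0.74 ± 0.06 with edgeR's adjusted p = 0.00383. Onecut2, a cut-homeodomain factor, was at 46.1, 45.5 and 43.2 CPM against 66.6, 63.9 and 70.6 CPM (0.58 ± 0.06, adjusted p = 0.00700). In all of these the lowest mutant exceeded the highest control. The rest of the 10 largest rises were Rgcc (0.92), Pdzrn4 (0.83), Angpt1, a vascular ligand (0.77), Gm17750 (0.74), Nav3 (0.63) and the protocadherin Pcdh8 (0.59) on the log2 scale.

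**Figure D3:**
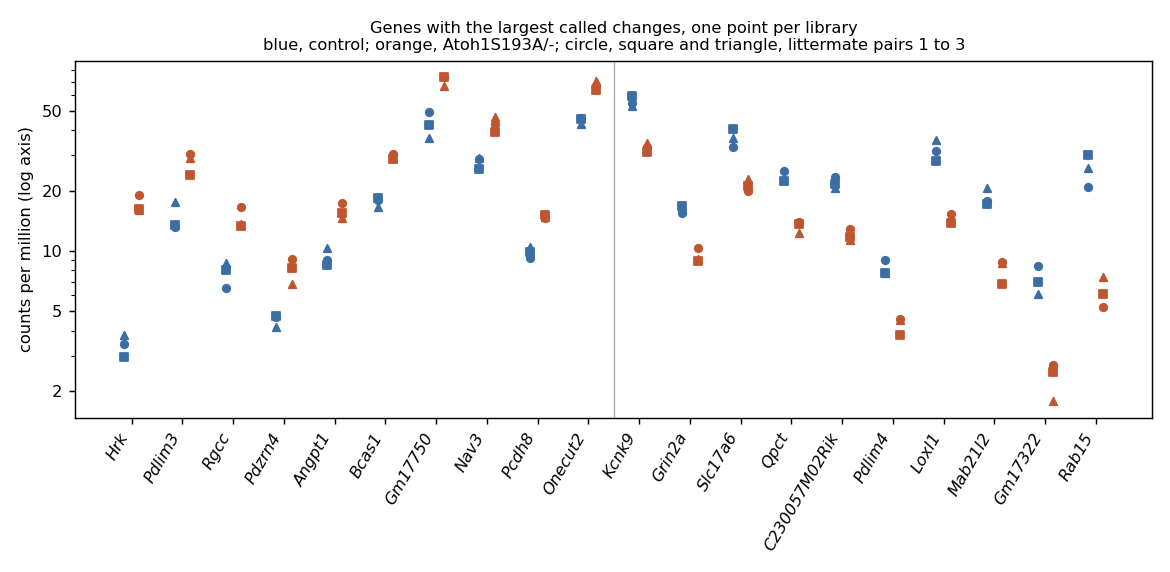
CPM on a log axis of the 10 genes with the largest called rises, left of the grey line, and the 10 with the largest called falls, right of it; each point is 1 library (blue, control; orange, Atoh1S193A/-; symbols, littermate pairs 1 to 3). The 20 genes were chosen among called genes without overlap between the genotypes, and the widest gaps are at Hrk (2.97 to 3.79 against 16.0 to 19.0) and Rab15.

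Genes were also read by lists, each described by its counts beside the background of 0.441% called, 6.14% with an unadjusted p under 0.05 and a median change of -0.01 over all genes. Genes of the rule are left out of the counts. Among 25 granule lineage transcription factors tested, Barhl1 was the 1 called, the list median was 0.05 and 5 had an unadjusted p under 0.05. Neurod1 was at 538, 582 and 691 CPM in controls and 538, 651 and 867 CPM in mutants. Zic1 was at 728, 745 and 771 CPM against 696, 704 and 810 CPM. For both the genotypes overlapped. Under the littermate block Lhx9, a LIM-homeobox gene, also passed, at 4.75, 4.85 and 4.84 CPM in controls and 9.48, 5.84 and 7.93 CPM in mutants. DESeq2 called Atoh1, Barhl1 and Lhx9.

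Of 11 genes for factors of granule domains, edgeR and DESeq2 called 0, 2 had an unadjusted p under 0.05 and the median was -0.09. With the block En1, an anterior hindbrain homeobox gene, passed as lower. It was at 35.0, 38.5 and 48.1 CPM in controls and 24.4, 34.2 and 35.5 CPM in mutants, lower within each pair though the groups just overlapped.

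Hedgehog genes were not called for genotype without the block. Of 7 receptors and modulators and of 12 transducers and targets, edgeR and DESeq2 called 0, with 2 in each list at an unadjusted p under 0.05 and medians of -0.05 and 0.06. Gli1 was at 32.8, 31.3 and 29.1 CPM in controls and 34.2, 32.9 and 34.6 CPM in mutants (log2 difference 0.12 ± 0.06). Ptch1 was at 162, 140 and 143 CPM against 162, 159 and 158 CPM (0.11 ± 0.06). Both differences are small beside the fall of Rab15 and did not pass (adjusted p = 0.906 and 1 by edgeR). The co-receptor Boc had an adjusted p of 0.0328 with the block by edgeR at a log2 difference of -0.19, under the limit of 0.25 for a call, and was lower in the mutant of each pair. Sfrp1, a Wnt-binding protein listed as a Hedgehog target, passed with the block alone, at 79.8, 78.1 and 56.5 CPM against 96.2, 88.2 and 79.4 CPM.

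Notch signaling genes were called by other fits only. Of 11 ligands, receptors and modulators edgeR called 0, DESeq2 called Dll3, 4 had an unadjusted p under 0.05 and the median was 0.04. Dll3, an atypical Notch ligand, was at 9.14, 8.07 and 5.99 CPM in controls and 16.0, 15.6 and 9.36 CPM in mutants (log2 difference 0.83 ± 0.22; edgeR adjusted p = 0.311, and 0.000499 with the block). Mfng, which glycosylates Notch receptors, was at 21.3 ± 2.96 CPM against 16.0 ± 1.85 CPM (SD, n = 3 each) and passed with the block.

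Of 5 Notch effectors and Id genes edgeR called 0 and DESeq2 called Hes1, the 1 gene with an unadjusted p under 0.05, and the median was 0.00. Hes1, a repressor of proneural genes, was at 66.1, 97.2 and 79.0 CPM in controls and 49.0, 61.1 and 57.8 CPM in mutants (log2 difference -0.53 ± 0.14; edgeR adjusted p = 0.312, and 0.000474 with the block). It was lower in the mutant of each pair, while litter 2 was the highest in both genotypes.

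Among cell cycle genes 1 was called. Of 14 cyclins and kinases of G1 edgeR and DESeq2 called 0, and 2 had an unadjusted p under 0.05. Ccnd1 was at 379, 351 and 362 CPM in controls and 406, 404 and 404 CPM in mutants, and Ccnd2 at 1302, 1727 and 1419 CPM against 1208, 1351 and 1335 CPM. The D cyclins thus differed by 0.15 ± 0.05 and -0.19 ± 0.11 on the log2 scale without passing. Of 10 inhibitors of the cycle, Gadd45g, a growth arrest gene, was the 1 called. It was at 102, 104 and 102 CPM against 156, 130 and 142 CPM (0.47 ± 0.07, edgeR adjusted p = 0.0317, and 0.0587 to 0.155 in the 6 alternatives where it did not pass).

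Of 42 S phase genes edgeR and DESeq2 called 0, with 2 at an unadjusted p under 0.05 and a median of 0.01. Of 50 G2 and mitosis genes, whose summed share is given above, both called 0 and none had an unadjusted p under 0.05, although 46 were higher in the mutant, against 46.9% of all genes tested, and the median was 0.05. In 26 of the 50 the mutant was higher in all 3 pairs, against 15.4% of all genes tested.

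Of 34 genes of neuron differentiation and migration edgeR and DESeq2 called 0, 9 had an unadjusted p under 0.05 (26.5%, against 6.14% of all genes) and the median was 0.01. The block called Plxna2, a semaphorin receptor, as higher and the guidance gene Ntn1, the calmodulin regulator Pcp4 and the cytoskeletal gene Dpysl3 as lower. Of 19 cell death genes Hrk was the 1 called and the median was 0.02. Pak3, a kinase on this list, was at 25.1, 23.6 and 28.0 CPM in controls and 29.4, 31.6 and 32.5 CPM in mutants and passed with the block.

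A further list held 8 genes that the study names in its account of the E14.5 cells of the same series, among them the cell death genes Hrk, Pak3 and Dap. Of these, 1 rose (Hrk), 2 fell (Rab15 and Barhl1) and 5 were not called, with a list median of -0.04. With the block, 3 were higher (Atoh1, Hrk and Pak3) and 3 lower (Barhl1, Rab15 and Pcp4). The list was chosen on data of this series, so it is not independent evidence of direction.

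Markers of other cell types were read over the same members. The 12 glial markers summed to 277 to 589 CPM in controls and 310 to 544 CPM in mutants, most of it Fabp7 (59.1 to 303 CPM over the libraries) and Sox9. Of 6 tested edgeR called 0, and Pdgfra passed with DESeq2 and with the block, at 62.7, 50.5 and 48.7 CPM against 75.8, 74.6 and 68.5 CPM. The 11 inhibitory neuron and Purkinje markers summed to 123 to 149 CPM and 141 to 184 CPM, nearly all from Lhx1, with Gad2 at 1.50 to 4.48 CPM and Skor2 at 0.03 CPM or less. The 5 unipolar brush cell markers, carried by Otx2, summed to 240 to 284 CPM and 229 to 290 CPM.

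The 14 caudal and pontine markers summed to 1.74 to 6.51 CPM and 1.33 to 7.63 CPM, with Hoxb2 to Hoxb5 at 0 by the rule. The 15 microglia, vessel, blood and choroid markers summed to 13.0 to 290 CPM in controls, where control 2 held the highest hemoglobin, and 20.9 to 59.2 CPM in mutants, and none of them entered the test. The 15 dissociation and stress genes summed to 2728 to 3087 CPM and 2720 to 3354 CPM. Of 12 tested, both tools called 0 and none had an unadjusted p under 0.05, with a median of 0.08. The part of these cells and of stress in the called changes was not tested.

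Of the called genes, Barhl1, Rab15 and Gadd45g were also read by position in the cell cycle. In cells thinned to 5000 UMIs, Barhl1 averaged 1.17 ± 0.10 UMIs per S-leaning control cell and 0.851 ± 0.05 per mutant cell (SD, n = 3 each). In cells leaning to G2 and mitosis it averaged 1.12 ± 0.04 and 0.855 ± 0.09. Rab15 averaged 0.148 and 0.0328 UMIs in S-leaning cells and 0.114 and 0.0272 in the others. Both genes were thus lower in mutants in either phase, given here without a test. Gadd45g was higher in mutants in either phase, with 0.353 and 0.498 UMIs in S-leaning cells and 0.667 and 0.897 in the others.

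Cells with and without Atoh1 transcripts were compared in the same way. In thinned members with 0 Atoh1 UMIs, Barhl1 averaged 1.05 ± 0.05 UMIs in controls and 0.799 ± 0.06 in mutants (SD, n = 3 each). With 1 or 2 Atoh1 UMIs it averaged 1.47 ± 0.12 and 0.982 ± 0.09. Neurod1 averaged 3.45 ± 0.45 and 3.88 ± 0.85 where Atoh1 was 0, and 1.70 ± 0.15 and 2.59 ± 0.86 where it was 1 or 2. Barhl1 was therefore lower in mutants at either Atoh1 level, while Neurod1 spread widely among mutant embryos. A count of 0 in a thinned cell does not show that the gene is off.

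A further comparison asked whether the genotype effect in dividing progenitors differed from that in non-dividing granule lineage cells. In the non-dividing cells edgeR called 0 of the same 9970 genes (557 at an unadjusted p under 0.05), and 138 with the littermate block (1.38%). Of the 44 genes called in progenitors, 25 were among these 138. The difference between both effects was tested with each library as a block, so the classes share embryos, and 64 genes (0.642%) had an adjusted p under 0.05. Among them were 16 of the 44 called genes. Since the 44 were called in the progenitors, that they include larger changes there is partly a result of the choice.

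Hrk differed most clearly. In non-dividing cells it stood at 9.62, 8.57 and 11.0 CPM in controls and 20.1, 17.6 and 17.2 CPM in mutants, a log2 difference of 0.91. Control progenitors were thus lower than control non-dividing cells, whereas mutant progenitors reached about the same level as mutant non-dividing cells. The effect in progenitors exceeded that in non-dividing cells by 1.42 ± 0.09 (SE; edgeR adjusted p = 2.73e-05).

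Rab15 in non-dividing cells was at 20.5, 27.1 and 30.2 CPM in controls and 13.0, 17.5 and 19.9 CPM in mutants, a difference of -0.63. The effect in progenitors minus that in non-dividing cells was -1.39 ± 0.11 (SE; edgeR adjusted p = 0.000125). Barhl1 in non-dividing cells was at 262, 241 and 242 CPM against 220, 213 and 221 CPM, and its effects differed by -0.27 ± 0.04 (adjusted p = 0.0149). All 3 genes kept their direction in both classes.

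For Slc17a6, Cbln1 and Gm2694 the fall in progenitors stood beside little difference in non-dividing cells. Slc17a6 was at 86.6, 87.0 and 94.5 CPM in control and 86.8, 78.9 and 95.0 CPM in mutant non-dividing cells, and its effects differed by -0.73 ± 0.08 (adjusted p = 0.00136). Gm2694 was at 594, 579 and 662 CPM against 552, 628 and 657 CPM, with effects that differed by -0.65 ± 0.06 (adjusted p = 0.000599). Cbln1 was at 303, 292 and 318 CPM against 304, 322 and 347 CPM, with effects that differed by -0.60 ± 0.07 (adjusted p = 0.00225). Each of these genes was higher in non-dividing cells than in progenitors in both genotypes. Of the 44 called genes, 41 had the same sign in non-dividing cells (62.7% over all genes), the exceptions being Cbln1, Diras2 and Gm2694.

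**Figure D4:**
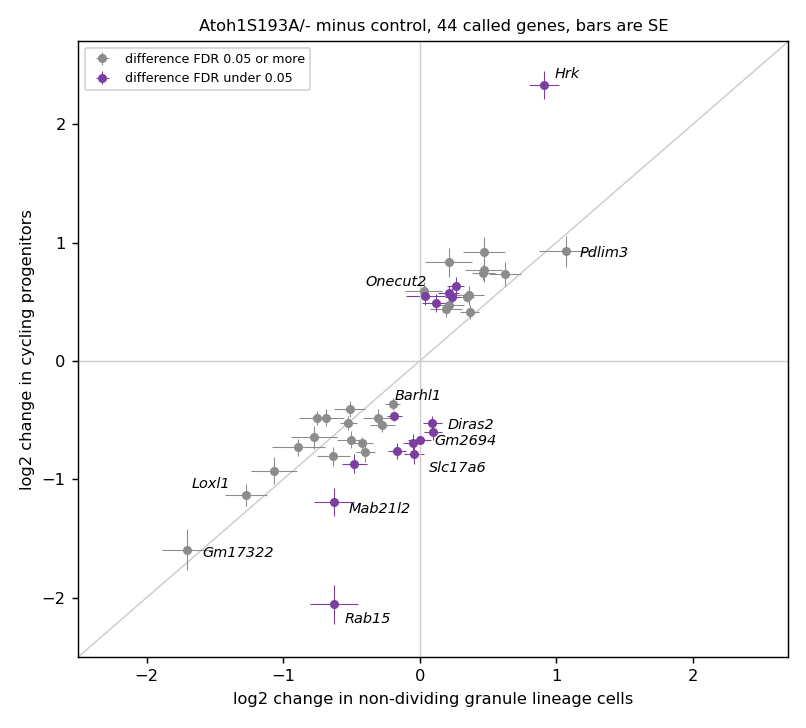
Log2 change (Atoh1S193A/- minus control) of the 44 genes called in cycling progenitors, in progenitors (vertical) and in non-dividing granule lineage cells of the same libraries (horizontal), with SE bars and the line of equal change; purple marks the 16 genes whose effects differed at an adjusted p under 0.05. Hrk (2.33 against 0.91) and Rab15 (-2.06 against -0.63) lie farthest from the line.

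The stage comparison set the E18.5 progenitors beside cells chosen by the same limits in 6 E14.5 libraries. Hedgehog targets such as Gli1 and Ptch1 were higher in the E18.5 cells, as were Neurod1 and Nhlh1, and Id1, Id3, Hes1 and Atoh1 were lower. The mix of cell types among the E14.5 cells was not examined cell by cell. Its part in these differences was not tested. There were 2247 E14.5 cells, from 186 to 604 per library. Their median depth was 23126 to 28774 UMIs by library, against 15446 to 23584 in E18.5 members. The limits count raw UMIs, and the part of depth in which cells were chosen at each stage was not tested. Of 10694 genes, 5368 were called (50.2%), 2865 higher at E18.5 (26.8%) and 2503 lower (23.4%), with a median of 0.02. This fit took littermates as independent embryos. The stage change in control libraries alone gave 4471 calls and that in mutant libraries alone 4390. Stage cannot be told apart from collection and sequencing run, and the E14.5 control libraries 1 and 2 were counted with an older Cell Ranger version. CPM in the stage comparison was scaled over all 12 libraries and so differs slightly from the values above.

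Gli1 was between 0.190 and 1.05 CPM in the 6 E14.5 libraries and between 28.6 and 34.3 CPM in the 6 E18.5 libraries. Its log2 change was 5.58 ± 0.15 (SE; edgeR adjusted p = 2.74e-10), one of the 6 largest rises. Ptch1 rose from 25.7 ± 4.75 CPM at E14.5 to 153 ± 10.5 CPM (SD, n = 6 each; 2.55 ± 0.11), and Sfrp1 from 4.79 to 19.2 CPM to 55.6 to 96.0 CPM (2.67 ± 0.22). Ccnd1 rose from 55.5 to 111 CPM to 347 to 405 CPM (2.16 ± 0.16). None of these genes overlapped between stages, which was true of 37.2% of all genes tested, and Gli1 was named by a rule that required it. Of the 12 Hedgehog transducers and targets tested, 9 rose, 1 fell (Gli3, at -0.64) and the median was 0.81. Mycn, a further target, was at 86.7 to 170 CPM and 120 to 160 CPM and did not pass (0.11 ± 0.16, adjusted p = 0.575).

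The Hedgehog receptors and modulators were mixed, with 3 of 8 higher, 2 lower and a median of 0.05. The co-receptor Boc rose by 0.83 on the log2 scale, while the co-receptors Cdon and Gas1 fell by 3.77 and 0.49. Cdon was at 30.7 to 94.1 CPM at E14.5 and 1.76 to 4.33 CPM at E18.5.

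Atoh1 was lower at E18.5, at 51.5 to 78.8 CPM against 113 to 180 CPM at E14.5 (log2 change -1.31 ± 0.10; edgeR adjusted p = 8.29e-07). Id3, an inhibitor of helix-loop-helix factors, fell from 191 to 747 CPM to 2.74 to 20.9 CPM (-5.62 ± 0.66). Id1 fell from 115 to 492 CPM to 42.8 to 67.7 CPM (-2.13 ± 0.32). Of 7 Notch effectors and Id genes 6 fell and 1 rose (Hey1, by 1.34), with a median of -1.38. Hes1 changed by -1.38 ± 0.17 and its ranges met at 96.1 CPM in the lowest E14.5 and the highest E18.5 library. The stage change of Hes1 was -0.67 in control libraries alone and -2.09 in mutant libraries alone. The difference in genotype effect between the stages was -1.42 ± 0.34 for Hes1 and did not pass (edgeR adjusted p = 0.358), whereas with littermates as a block it was -1.39 ± 0.11 and passed (adjusted p = 0.00194).

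Among 26 granule lineage factors tested, 10 rose, 8 fell and the median was 0.06. Neurod1 rose from 106 to 285 CPM to 533 to 858 CPM (1.60 ± 0.15). With littermates as a block its stage change was larger in mutants than in controls by 0.95 (edgeR adjusted p = 0.0254). That difference did not pass without the block. Nhlh1, a helix-loop-helix factor of young neurons, rose from 4.94 to 10.8 CPM to 32.3 to 41.9 CPM (2.35 ± 0.11). Barhl1 was at 38.8 to 287 CPM at E14.5, where 1 mutant library was far below the rest, and 155 to 223 CPM at E18.5 (0.02 ± 0.27, adjusted p = 0.963). Meis2, Lhx9 and Sox2 fell by 3.45, 2.16 and 1.42. Of 13 domain factors tested 9 fell, among them Otx2 (-0.90), Nr2f1 (-0.90), Nr2f2 (-1.01) and Pax3 (-0.96), 1 rose (Tlx3, 1.91), and the median was -0.91. The stage change of Tlx3 did not pass with DESeq2 (adjusted p = 0.0672).

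In the other lists the stage changes went both ways. Of 14 Notch ligands, receptors and modulators 4 rose and 5 fell. Among 15 G1 cyclins and kinases 6 rose, with Cdk6 up by 3.16, and 3 fell. Of 10 cycle inhibitors 4 rose and 3 fell, with Gadd45g among the falls (-1.75). Of 42 S phase genes 7 rose and 12 fell, and of 50 G2 and mitosis genes 14 rose and 6 fell. Of 35 neuronal genes 17 rose, including Dcx (1.51) and Rbfox3 (1.88), and 10 fell, including Tubb3 (-0.77). With littermates as a block the log2 stage changes of Dcx and Tubb3 were higher in mutants than in controls by 0.65 and 0.68. These differences passed with the block (edgeR adjusted p = 0.00729 and 0.00388) and not without it. Of 19 cell death genes 6 rose and 3 fell, and of the 8 genes named in the study's E14.5 account 1 rose and 4 fell. These shares lie beside backgrounds of 26.8% and 23.4%.

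The largest stage changes outside the lists were in genes near 0 at the other stage. Tbata went from at most 0.399 CPM to 35.2 to 59.6 CPM, Hpca, a neuronal calcium sensor, from 0.702 to 2.94 CPM to 94.1 to 135 CPM, and 4631405J19Rik, Nupr1 and Gm11541 were the other large rises. Rspo1, a Wnt agonist, went from 21.6 to 93.3 CPM to 0.118 to 0.796 CPM, with Fam163a, Cldn19 and Gm17455 also among the falls. Ttr, a choroid plexus gene, ranged from 36.4 to 2880 CPM at E14.5 and from 0.0709 to 8.23 CPM at E18.5, and embryonic hemoglobin Hbb-y had 0 UMIs in E18.5 members. The blood and choroid markers summed to 69.0 to 2817 CPM at E14.5, and their part in the stage differences was not tested. Inhibitory neuron markers summed to 7.12 to 15.8 CPM at E14.5, below the E18.5 range, since Lhx1 rose by 4.51.

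**Figure D5:**
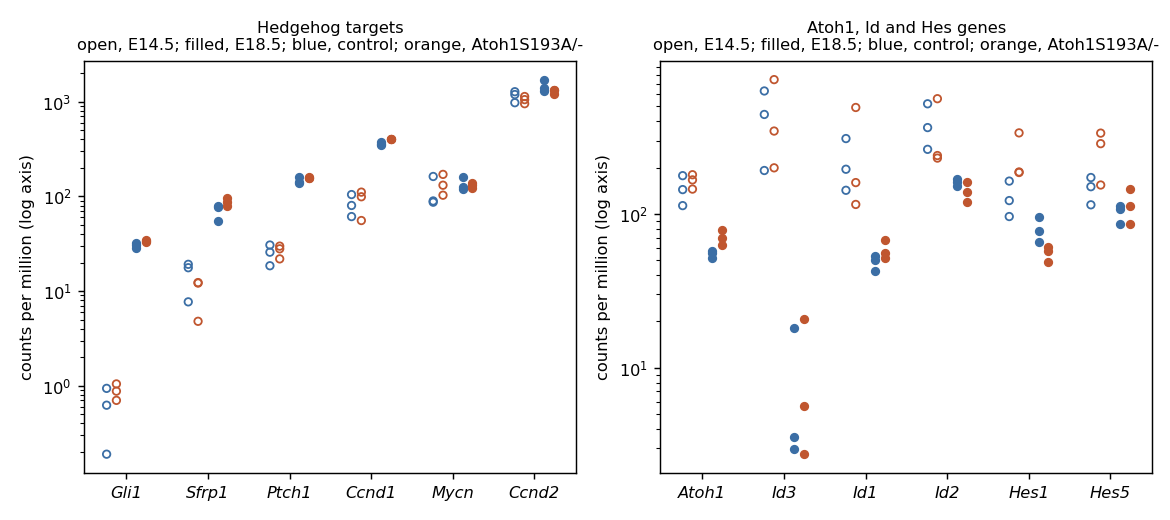
CPM on a log axis of 6 Hedgehog targets (left) and of Atoh1, Id and Hes genes (right) in the cells chosen by the rule in each library. Open symbols are E14.5 and filled symbols E18.5, blue is control and orange Atoh1S193A/-. Gli1 lies at or under 1.05 at E14.5 and at or over 28.6 at E18.5, while Atoh1 and Id3 lie lower at E18.5.

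The last comparison was whether the genotype effect differed between the stages. In the fit over 12 libraries, 50 genes were called for genotype at E14.5 (0.468%; 11 higher and 39 lower) and 9 at E18.5 (0.0842%). Cell Ranger 3.1.0 had counted E14.5 controls 1 and 2, and 5.0.1 all E14.5 mutants. Genotype and software version are thus partly confounded in every E14.5 genotype effect given here. Of the 44 genes called at E18.5 in its own fit, 34 had the same sign at E14.5 (48.4% over all genes), and Rab15, Kcnk9 and Kctd8 were also called there. Rab15 at E14.5 was at 58.0, 55.7 and 30.1 CPM in controls and 9.98, 6.43 and 7.90 CPM in mutants (-2.53 ± 0.26; edgeR adjusted p = 0.00533). Hrk was at 4.69, 1.46 and 3.98 CPM against 16.7, 5.14 and 10.3 CPM, higher in each mutant, and did not pass (1.63 ± 0.40, adjusted p = 0.103). For neither gene did the effects differ between stages by the test (adjusted p = 0.941 for both).

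The interaction test found 3 genes at an adjusted p under 0.05 (0.0281%; 707 at an unadjusted p under 0.05) and 212 with littermate blocks (1.98%). Pou4f1, a POU-homeodomain factor, was at 2.68, 2.18 and 2.66 CPM in E18.5 controls and 6.72, 7.90 and 8.63 CPM in E18.5 mutants. At E14.5 it was at 5.26, 7.07 and 4.46 CPM against 4.47, 4.33 and 4.13 CPM. The genotypes were apart at E18.5 and close at E14.5, and the effects differed by 1.96 ± 0.26 (SE; edgeR adjusted p = 0.0357). Smim18 was lower in mutants at E14.5, at 6.55, 4.33 and 5.29 CPM against 12.2, 11.0 and 12.8 CPM in controls, and slightly higher at E18.5 (difference 1.44 ± 0.19). Clvs1 followed the same form (1.09 ± 0.15, adjusted p = 0.0390). With the blocks, 134 of the 212 differences were positive and 78 negative. Those in the neuron differentiation list were all positive. The largest were Gap43 (1.15), Stmn2 (1.06), Elavl2 (0.74), Dpysl4 (0.73), Unc5c (0.69) and Tubb3 (0.68). The rest were Elavl3, Dcx, Stmn1, Stmn3, Srrm4 and Elavl4 (0.67 to 0.48), and all were picked after their values were seen. Without the block the count of 3 became 1 without E14.5 mutant 1, 5 without E14.5 mutant 2 and 0 in each other single omission. With the 10 libraries counted by Cell Ranger 5.0.1 alone the count was 0 (780 at an unadjusted p under 0.05).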

How the data were processed

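The authors sequenced 10x 3′ libraries (v3.1) and deposited UMI counts per gene and cell barcode, made with Cell Ranger 5.0.1 on mm10 with an added WPRE sequence (the file headers of E14.5 control 1 and 2 name 3.1.0). Counts were used as deposited. The members, gene lists and rule limits were chosen with earlier results of these data known. UMIs were summed over the members of each library, since cells of an embryo are not replicates, and tested with edgeR 4.0.16 (quasi-likelihood, TMM) in R 4.3.3. Shares were tested with limma 3.58.1 on logits with 0.5 cells added and with exact permutation tests over all divisions of the libraries, computed in R. Genes detected in 10% or more of the members of either genotype were tested. The test without the block was also run on simulated counts with known changes. Those counts held no litter effects, so that run does not cover the pairing of the embryos. No doublets were removed, and an alternative left out the 7.5% of cells with the highest Scrublet score (scanpy 1.11.5). Cells were thinned to 5000 UMIs for the marker shares compared between cell groups, for phases and for UMIs per cell within phases, whereas shares beside the limits of the rule and of the rule's own genes are unthinned.

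Named genes were the called ones and up to 4 of the highest-level members of each of 19 lists, the 10 largest non-overlapping rises and falls by genotype, 6 each by stage, and 3 by interaction. Genes named for passing with the littermate block or DESeq2 1.42.0 alone, list members named by stage, and further called genes were chosen after their values were seen. The paper gives each mutant a littermate control, the labels give replicate numbers, and equal numbers were taken as pairs. Deviations from group means correlated within pairs (r = 0.741, 0.702 and 0.849) and from -0.665 to 0.241 otherwise. Centering each genotype on its own mean lowers the values outside pairs. In the paper's sample list sex is the same within each E18.5 pair but not across pairs, so litter and sex cannot be fully told apart. In E14.5 pair 1 of that list the control is female and the mutant male, so sex and genotype are partly confounded there. Alternatives were other scalings, no filter, DESeq2, single libraries left out, stricter cell limits, equal cell numbers and thinning. Intervals between libraries cover 3 embryos a group. The 2 postnatal libraries of the series were not used here.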

Additional observations from a re-analysis of the deposited data

Results flagged for a closer look

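The effect of genotype differed between stages for 3 genes by the interaction test of edgeR. With any single E18.5 library left out, 0 genes passed. The difference, E18.5 effect minus E14.5 effect on the log2 scale, was 1.96 for Pou4f1, 1.44 for Smim18 and 1.09 for Clvs1.

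For 16 genes called in the cycling progenitors, the genotype effect differed between progenitors and non-dividing granule lineage cells of the same embryos (adjusted p under 0.05 over 9970 genes). The difference was positive for 6 of the genes that rose: Hrk (1.42), Sept8 (0.52), Nav3 (0.37), Sept4 (0.37), Onecut2 (0.37) and Ppp2r2b (0.32). It was negative for genes that fell, at -1.39 for Rab15, -0.73 for Slc17a6, -0.68 for Diras2, -0.65 for Gm2694, -0.64 for Camk4, -0.60 for Cbln1, -0.58 for Kcnk9, -0.54 for Mab21l2, -0.38 for C230057M02Rik and -0.27 for Barhl1. All 16 were chosen because they were called in the progenitors, which favors larger effects there.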

How the results depend on the processing

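The 44 genotype calls became 118 with DESeq2, 105 without the detection filter and 225 with the replicate block. They ranged from 11 to 32 when single libraries were left out. The other settings without the block gave 30 to 49. Settings added after the data were seen, all with the replicate block, gave 178 under 5% mitochondrial UMIs, 227 without the top Scrublet scores, 203 with at least 6 UMIs of Mki67 plus Top2a, 216 with equal cell numbers, 159 with thinned members, 249, 316 and 108 without pair 1, 2 and 3, and 142 with DESeq2. The share of calls that were higher was 40.9%, and 47.5% with DESeq2. It was 22.2% without mutant 1, 22.7% without mutant 3, 27.3% without control 2, 28.6% without control 1, 33.3% without mutant 2 and 37.5% without control 3. The 3 interaction calls became 57 with DESeq2, 212 with the replicate block, 0 with Cell Ranger 5.0.1 alone and 0 to 5 with single libraries left out. The cause of these changes was not tested, apart from fewer libraries in the omissions.

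Differences in shares that did not pass the test changed sign with single libraries left out, from -1.27 to 2.40 points of kept cells and from -5.56 to 1.33 points of granule lineage cells, and the replicate block left both short of the threshold by limma (adjusted p = 0.719 and 0.316). The stage changes of Gap43 and Stmn2 (0.55 and 0.44) were -0.0025 and -0.073 in control libraries alone. Across all alternatives, stage calls were lost 55 times in 16 of the named genes (with Tlx3, Mib1, Cenpf, Stmn1 and Ube2c among them) and gained 13 times in 6 genes. The difference in mean S-leaning share kept its sign and did not pass in any alternative. With 3 embryos a group, genes of low count limit what can be detected.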

Other observations

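The called falls also included Col18a1, Fbln1 and Loxl1, grouped here after their values were seen. Col18a1, a basement membrane collagen, was at 37.4, 34.6 and 32.3 CPM in control progenitors and 20.7, 22.5 and 19.7 CPM in mutant progenitors. Fbln1, encoding fibulin 1, was at 32.3, 30.2 and 32.9 CPM against 21.8, 23.6 and 23.2 CPM. Together with Loxl1, these 3 genes had log2 changes of -0.73, -0.48 and -1.13 (Col18a1, Fbln1, Loxl1) in progenitors and of -0.89, -0.76 and -1.27 in non-dividing cells. At E14.5 the same order of genes gave differences of 0.07, 0.16 and 0.41, none of which passed, and the interaction with stage did not pass without the littermate block (edgeR adjusted p from 0.365 to 0.620). With the block it passed for Col18a1 (-0.80, adjusted p = 0.00847), Fbln1 (-0.60, adjusted p = 0.0243) and Loxl1 (-1.54, adjusted p = 0.00388). These 3 tests are on genes chosen for their values.

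The called rises also included the septins Sept4 and Sept8, the HMG-box factor Tox3 and the long noncoding RNA gene Rmst. Rmst was at 69.4, 73.6 and 70.3 CPM in controls and 106, 102 and 103 CPM in mutants, with a log2 change of 0.54 ± 0.05 (SE). Sept8 was at 19.4, 16.4 and 17.2 CPM against 27.3, 25.3 and 24.9 CPM, a change of 0.55 ± 0.08, and its difference in non-dividing cells was 0.04. In each of these genes the lowest mutant exceeded the highest control.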
